A study of Homo sapiens with 6 samples.

Results

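The genes described here are 46 genes of the interferon response and of antigen presentation, named by symbol. These genes were chosen with earlier results of these data known. They comprise 29 interferon-induced antiviral genes, 6 STAT and IRF transcription factor genes and 11 genes of class I antigen presentation. Of the 46, 45 were found among the 23059 genes of the count tables and 41 passed the filter on low counts, against 15173 genes that passed in all. The cells were HCC-LM3, an established human liver cancer line that metastasises readily in mice, in both groups. The 3 DMSO libraries came from cells given the solvent as control, and the 3 apigenin libraries from cells given apigenin, a plant flavone, as separate biological replicates per the labels. The labels state neither the dose nor how long the cells were treated. The study's title concerns microvesicle formation and tumour angiogenesis.

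Interferons are secreted proteins that act through receptors with JAK kinases. Type I and III interferons drive the factor ISGF3, made of STAT proteins and IRF9, to a promoter element called the ISRE (interferon-stimulated response element). Interferon gamma drives STAT dimers to the GAS element (gamma-activated sequence), and IRF1 is among its first targets. The products of induced genes block viral replication, or they cut, carry and display peptides on class I HLA molecules for T cells. The immunoproteasome subunits PSMB8, PSMB9 and PSMB10 replace the constitutive subunits PSMB5, PSMB6 and PSMB7, and TAP1 with TAP2 moves the peptides into the endoplasmic reticulum.

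Libraries held 33882145 to 37983636 counted reads. Levels are given as CPM, the count scaled to library size with TMM factors, and a count of 0 allows at most 0.079 to 0.0885 CPM by library (3 counts over the total, counting error only). The epithelial keratins KRT8 and KRT18 had 1283 and 571 FPKM with DMSO (counts scaled to both library size and gene length) and carried the sum of 4 epithelial markers, 1662 to 1891 FPKM. Of the other two, EPCAM was near 0, with 2 to 10 reads a library, and CDH1 was lower with apigenin (5.98 to 3.91 FPKM, log2 fold change -0.61 ± 0.0873, edgeR adjusted p = 0.0011). The part of these markers in the results was not tested. The 9 liver genes ALB, APOA1, APOB, APOH, TTR, SERPINA1, FGB, TF and AFP summed to 127 to 130 FPKM with DMSO and to 79.2 to 87.4 with apigenin. They did not all fall: ALB had 53.9 FPKM with DMSO and 23.1 with apigenin, while APOH had 27.5 and 27.8. Of 6 leukocyte markers, PTPRC, CD3E, CD14 and LYZ summed to 0.657 to 0.956 FPKM with DMSO and 0.304 to 0.929 with apigenin, and CD3E was at 0 in each DMSO library. Of 3 endothelial markers, PECAM1 had 6.94 FPKM with DMSO and 6.02 with apigenin. The other endothelial markers were low, with 0.0601 and 0.0486 FPKM for VWF and 0.0287 and 0.0024 for CDH5. The 3 fibroblast markers COL1A1, COL3A1 and PDGFRB summed to 0.0782 to 0.177 FPKM with DMSO and 0.0622 to 0.176 with apigenin. Over all tested genes the fold change fell with gene length, as given below. In RNA from whole cultures, fewer cells of a type and less RNA per cell cannot be told apart.

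The promoters of 6 genes are shown because they carry, or lack, letters of the elements through which interferon signals are known to act. A further reason is that 5 of the 6 genes were higher with apigenin. Each run is the 250 bases before the start site, on the gene's own strand, from RefSeq (GRCh38.p14). Capitals mark matches, on either strand, to GAAANNGAA, a 9-base part of the ISRE, or to TTCNNNGAA, the GAS element, which reads the same on both strands. Overlapping matches run together in capitals.
IRF1 (chr5:132490774-132491023, minus strand): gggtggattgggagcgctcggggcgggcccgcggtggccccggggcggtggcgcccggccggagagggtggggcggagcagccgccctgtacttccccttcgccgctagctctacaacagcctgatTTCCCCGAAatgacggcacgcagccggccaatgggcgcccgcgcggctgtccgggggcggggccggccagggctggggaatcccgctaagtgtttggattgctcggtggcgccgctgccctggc
ISG15 (chr1:1013247-1013496, plus strand): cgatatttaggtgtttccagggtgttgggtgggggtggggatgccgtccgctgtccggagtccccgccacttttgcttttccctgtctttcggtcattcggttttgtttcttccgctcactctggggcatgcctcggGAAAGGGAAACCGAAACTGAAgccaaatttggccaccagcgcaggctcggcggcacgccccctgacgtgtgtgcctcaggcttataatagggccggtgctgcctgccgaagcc
OAS1 (chr12:112906712-112906961, plus strand): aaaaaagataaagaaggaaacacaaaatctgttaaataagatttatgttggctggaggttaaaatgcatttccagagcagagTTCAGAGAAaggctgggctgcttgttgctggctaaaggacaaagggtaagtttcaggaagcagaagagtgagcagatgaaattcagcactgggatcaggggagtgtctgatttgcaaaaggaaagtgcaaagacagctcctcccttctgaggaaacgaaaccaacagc
B2M (chr15:44711267-44711516, plus strand): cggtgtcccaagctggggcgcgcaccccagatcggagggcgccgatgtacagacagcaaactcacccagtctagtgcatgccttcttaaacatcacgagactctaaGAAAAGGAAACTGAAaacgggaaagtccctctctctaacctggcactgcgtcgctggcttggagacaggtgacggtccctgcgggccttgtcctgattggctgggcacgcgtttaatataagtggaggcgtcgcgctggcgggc
PSMB9 (chr6:32853942-32854191, plus strand): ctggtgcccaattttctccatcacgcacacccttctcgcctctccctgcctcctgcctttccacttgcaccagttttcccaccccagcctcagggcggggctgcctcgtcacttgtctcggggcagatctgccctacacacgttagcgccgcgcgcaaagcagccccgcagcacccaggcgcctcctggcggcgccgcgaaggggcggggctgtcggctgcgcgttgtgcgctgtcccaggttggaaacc
TAP1 (chr6:32853705-32853954, minus strand): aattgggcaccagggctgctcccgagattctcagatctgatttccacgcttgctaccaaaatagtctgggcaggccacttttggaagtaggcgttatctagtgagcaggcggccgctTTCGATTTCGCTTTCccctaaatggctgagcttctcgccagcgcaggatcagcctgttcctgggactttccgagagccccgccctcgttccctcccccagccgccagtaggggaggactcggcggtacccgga

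The IRF1 promoter held 1 GAS match, at positions -124 to -116 from the start, and no ISRE match. ISG15 held 3 overlapping ISRE matches at positions -113 to -93. B2M held 2, at -144 to -130. OAS1 held 1 GAS match, at -168 to -160, and no match to these ISRE letters, though other forms of the ISRE were not searched. PSMB9 held no match to either. It faces TAP1, with 487 bases between its start and the upstream start of TAP1. The 2 overlapping ISRE matches of that interval lie at -133 to -119 from the TAP1 start and 355 to 369 bases from the PSMB9 start.

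Promoter windows of 300 bases (250 before to 50 after a start) were at hand for 35 of the 46 genes. The ISRE letters were found for 26 of these 35 genes, in 31 of their 47 windows (66%), against 8.11% of all 35116 windows. GAS letters were found in 11 of the 47 windows (23.4%) against 7.66% of all. Some windows overlap, so the windows are not separate observations. The same ISRE letters count more than once for IFI27, for IFI44, for DTX3L with PARP9 and for RSAD2 with CMPK2. The GAS letters of IFI27 also count more than once. Overlaps among all 35116 windows were not removed either. By role, ISRE letters were found for 20 of 23 antiviral genes, for 6 of 9 antigen presentation genes and for 0 of 3 factor genes. Of the 7 genes that rose with apigenin, 3 held ISRE letters (ISG15, B2M and PSMB8) and 3 held GAS letters (IRF1, OAS1 and PSMB8). A gene was counted if any of its windows matched. For PSMB8 the letters lie in the window at 32843998 to 32844297 of chromosome 6, and the ISRE match spans that start (-3 to 6). The PSMB8 window farther upstream, at 32844630 to 32844929, held 0 matches to either element. Of the 24 tested genes with a window that were not called, 19 held ISRE letters and 7 held GAS letters. A match describes the letters only. Other forms of the elements were not searched, so a gene without ISRE letters, such as OAS1 or HLA-C, may still hold an ISRE.

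**Figure D1:**
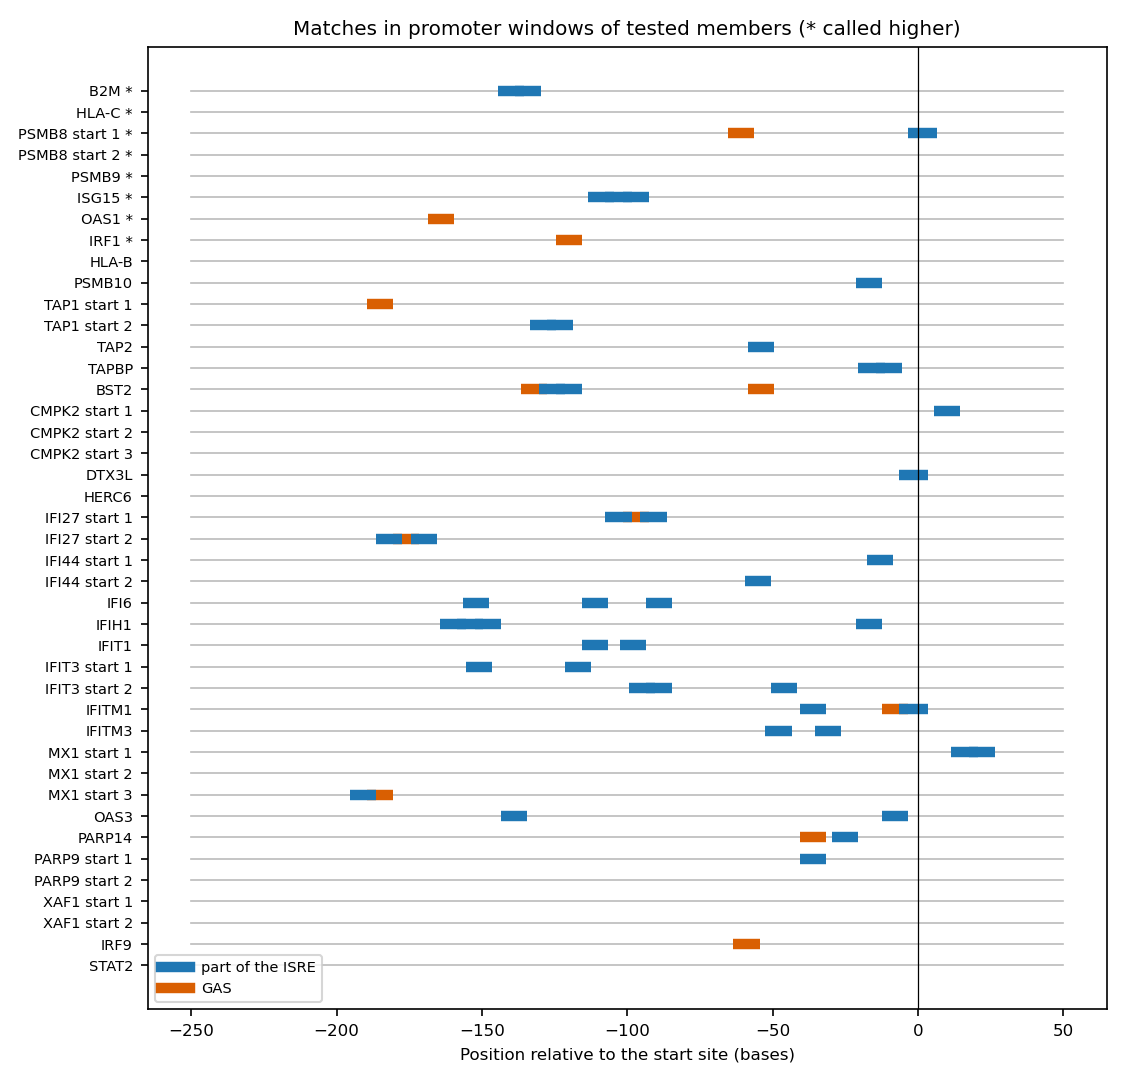
Positions of the ISRE part (blue) and the GAS element (orange) in the promoter windows of tested genes, in bases from the start site (x axis), 1 line per window and an asterisk for genes called higher with apigenin. ISG15 and B2M hold runs of ISRE matches at -113 to -93 and -144 to -130. PSMB9 and HLA-C hold no match to the letters of either element.

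The family was expressed unevenly in the control cells. Of the 45 genes with counts, 10 had a mean of at least 20 FPKM with DMSO, 10 had 5 to 20, 11 had 1 to 5 and 14 were under 1. Most of the low ones were antiviral, with 13 of 28 under 1 FPKM, against 1 of 11 antigen presentation genes and 0 of 6 factor genes. B2M, the light chain of class I molecules, was highest at 220 FPKM, rank 211 of 23059 genes. IFITM3, a membrane protein that hinders virus entry, had 144 FPKM, and OAS1, an enzyme that senses double-stranded RNA and activates RNase L, had 68.6 FPKM. IRF3, the latent factor of the first antiviral response, had 54.9 FPKM.

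Several genes usually counted among the strongest interferon targets were near the detection limit. For MX2, 0 reads were counted with DMSO in each library and 1, 4 and 1 with apigenin. HERC5, the ligase that attaches ISG15 to proteins, had 0, 0 and 4 reads with DMSO and 0, 1 and 0 with apigenin. RSAD2, the enzyme viperin, had 3, 1 and 0 reads with DMSO and 0, 0 and 1 with apigenin. IFI44L had 4, 3 and 12 reads with DMSO and 6, 29 and 9 with apigenin. These 4 genes did not pass the filter and were not tested, and the expression of the chemokine gene CXCL10, whose promoter is counted above, was not analysed here.

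**Figure D2:**
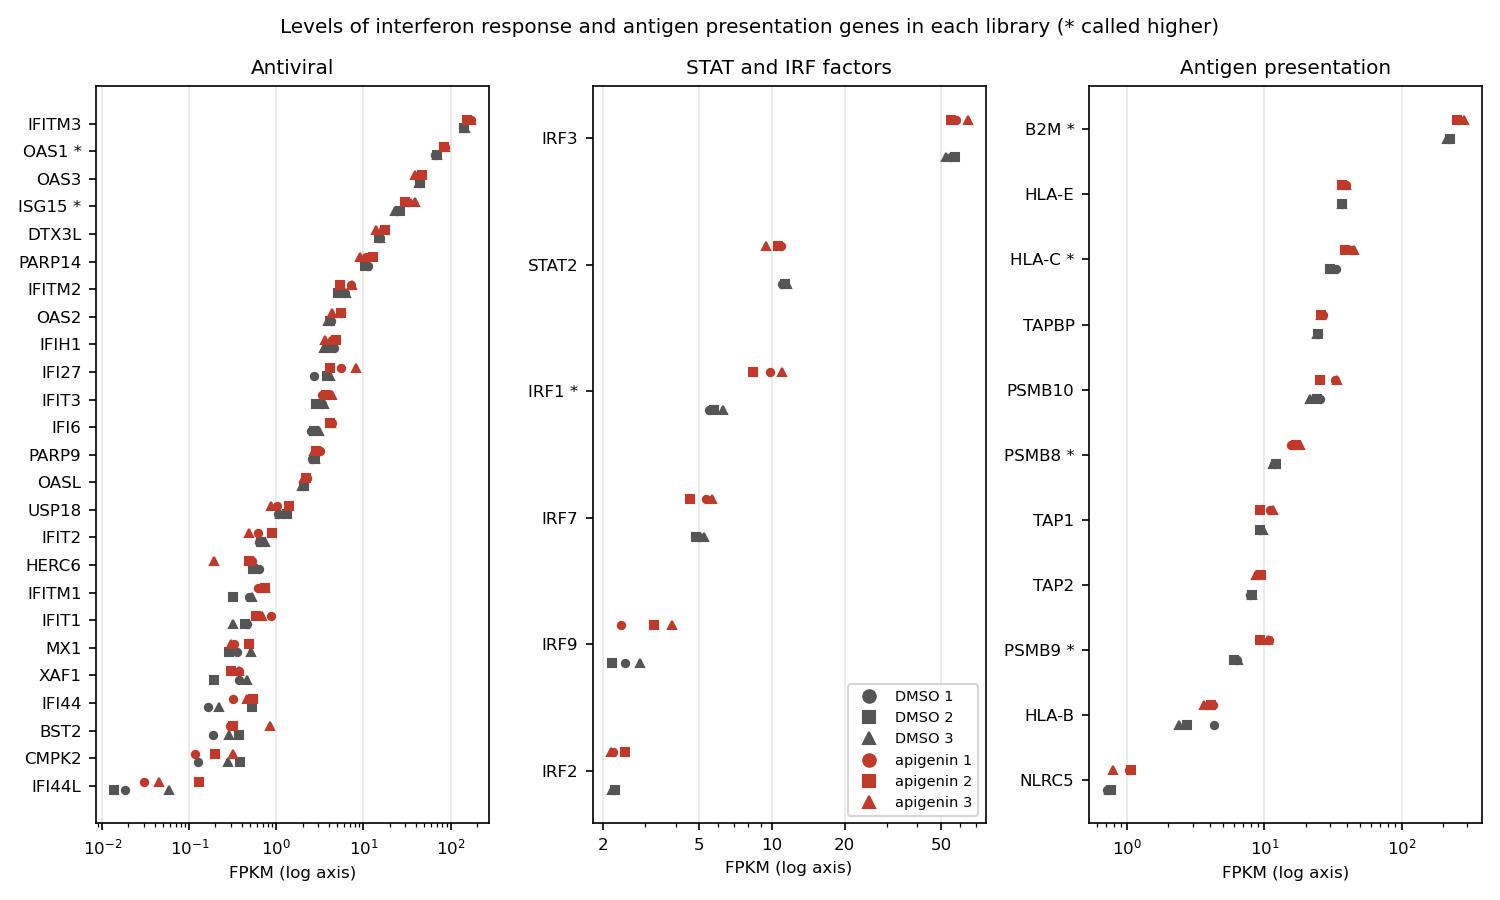
FPKM (x axis, log scale) of each gene in each library, DMSO in grey and apigenin in red, with symbols for replicates 1 to 3 and genes ordered by their DMSO mean. MX2, HERC5 and RSAD2, at 0 in some library, are not drawn; antigen presentation genes mostly lie above 5 FPKM, while antiviral genes spread from below 0.1 to above 100 FPKM.

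With apigenin, 7 of the 41 tested genes rose and 0 fell at an adjusted p under 0.05 (edgeR's quasi-likelihood test, Benjamini-Hochberg adjustment over all tested genes), where 2.76% of all tested genes rose and 4.22% fell. The 7 were the factor gene IRF1, the antiviral genes ISG15 and OAS1, and the antigen presentation genes PSMB8, PSMB9, B2M and HLA-C. At an unadjusted p under 0.05, 15 of the 41 were higher and 0 lower, where 11.7% of all tested genes were higher and 12.6% lower. DESeq2 called 11 higher and 0 lower, where it called 5.34% of all its tested genes higher and 7.37% lower. The median log2 fold change of the 41 was 0.19, against 0.00 (0.0039) over all tested genes. The rises were modest, from 1.203-fold for B2M to 1.665-fold for IRF1.

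By role, 4 of 11 antigen presentation genes rose, 2 of 24 tested antiviral genes rose and 1 of 6 factor genes rose. All 11 antigen presentation genes had a positive log2 fold change, with a median of 0.34, against 18 of 24 antiviral genes, with a median of 0.15, and 7711 of all 15173 tested genes. Without DMSO 3 the 2 medians were 0.25 and 0.24. Relative to the DMSO mean, the antigen presentation median was 0.39, 0.22 and 0.30 in apigenin 1, 2 and 3, and the antiviral median was 0.11, 0.22 and 0.21. The antigen presentation genes thus stood higher in apigenin 1 and 3 but not in apigenin 2. They were also shorter, with a median of 2845 nucleotides against 3801 for the antiviral genes. Over all tested genes, log2 levels relative to DMSO moved by -0.071, -0.021 and -0.147 per doubling of length in apigenin 1, 2 and 3. In the DMSO libraries this slope was 0.0015, -0.0047 and 0.0032. The part of length in the difference between roles was not tested. With the trend of each library on gene length removed, the 2 median log2 fold changes were 0.22 and 0.12. Then 6 of 11 and 3 of 24 genes were called higher, where 4.51% of all tested genes were higher and 5.46% lower. Whether the roles differed was not tested.

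**Figure D3:**
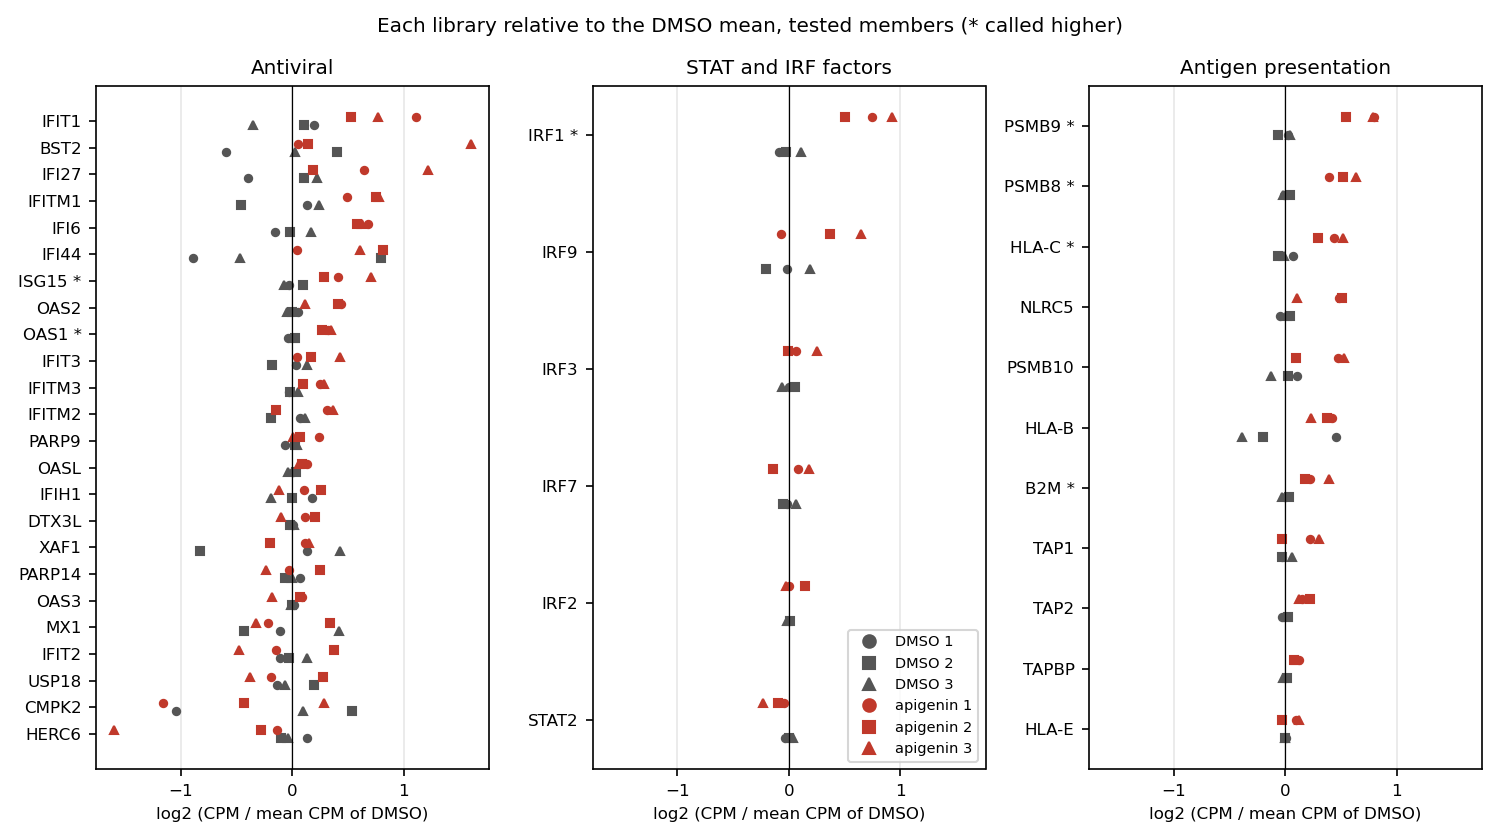
Log2 of the CPM of each library over the DMSO mean (x axis) for the 41 tested genes, by role and ordered by fold change, DMSO in grey and apigenin in red. IRF1, PSMB9, PSMB8, HLA-C, ISG15, OAS1 and B2M, marked with an asterisk, have all 3 apigenin libraries to the right of all 3 DMSO libraries, while low antiviral genes such as CMPK2 and XAF1 scatter widely within groups.

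Among the factors, IRF1 (chromosome 5, 132481609 to 132490773) rose. It had 19.7, 20.5 and 22.5 CPM with DMSO and 35.1, 29.7 and 39.7 with apigenin. The groups did not overlap, and apigenin 3 was highest. The rise was 1.665-fold (log2 fold change 0.74 ± 0.105 SE, n = 3 per group, edgeR adjusted p = 0.0011), and it was 0.71 with the length trend removed (adjusted p = 4.5e-05).

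The other factor genes did not pass. STAT2, a subunit of ISGF3, had 56.8, 58.2 and 59.6 CPM with DMSO and 56.3, 54.4 and 49.6 with apigenin (log2 fold change -0.12 ± 0.0695, edgeR adjusted p = 0.301), all 3 below the DMSO libraries. IRF9, its DNA-binding partner, had 4.41, 3.88 and 5.09 CPM with DMSO and 4.24, 5.77 and 6.96 with apigenin (0.34 ± 0.195, edgeR adjusted p = 0.301), with apigenin 1 inside the DMSO range. IRF3 had 106, 110 and 102 CPM with DMSO and 111, 105 and 126 with apigenin (0.11 ± 0.0709, edgeR adjusted p = 0.383), and its groups overlapped. IRF7, the amplifier of interferon alpha production, stood at 0.04 ± 0.121 and IRF2, which competes with IRF1 for its sites, at 0.04 ± 0.0905 on the log2 fold change scale. IRF3 overlaps BCL2L12, so its reads may be shared.

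Of the 3 immunoproteasome genes, PSMB9 and PSMB8 rose and PSMB10 did not pass. PSMB9 (chromosome 6, 32854192 to 32859851) had 6.45, 6.07 and 6.54 CPM with DMSO and 11, 9.29 and 11 with apigenin, a rise of 1.64-fold (0.71 ± 0.127, n = 3 per group, edgeR adjusted p = 0.00477). PSMB8 (chromosome 6, 32840717 to 32844679) had 17.9, 18.6 and 17.8 CPM with DMSO and 23.7, 25.8 and 28 with apigenin, a rise of 1.43-fold (0.51 ± 0.0911, edgeR adjusted p = 0.00464). Neither gene's groups overlapped. Both were called under each of the 18 other settings tried, with an adjusted p of up to 0.0399 for PSMB9 and 0.0428 for PSMB8. With the length trend removed PSMB9 stood at 0.56 and PSMB8 at 0.39. PSMB8 overlaps the antisense gene PSMB8-AS1, whose reads cannot be told apart if strand was not used.

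PSMB10, on chromosome 16, had 24.8, 23.4 and 21.1 CPM with DMSO and 32.1, 24.7 and 33.2 with apigenin. Apigenin 2 lay within the DMSO range, and the gene did not pass (0.37 ± 0.111, edgeR adjusted p = 0.0576). Without apigenin 2 it was called (0.50, edgeR adjusted p = 0.00192), where the genes called higher over all also went from 419 to 1344. With the length trend removed PSMB10 stood at 0.21 (adjusted p = 0.146). The constitutive counterparts did not pass, with log2 fold changes of 0.13 ± 0.0971 for PSMB6, 0.16 ± 0.0683 for PSMB7 and 0.16 ± 0.0888 for PSMB5, and near 0 with the length trend removed (-0.05, 0.01 and 0.02).

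Per gene length, the inducible subunit made up a small part of each pair in these cells. PSMB9 gave 6.46, 6.59 and 6.88% of the summed FPKM of PSMB9 and PSMB6 with DMSO, and 10.04, 10.3 and 8.84% with apigenin. PSMB8 gave 16.4, 17.7 and 16.7% of the sum with PSMB5 with DMSO, and 19.4, 23.3 and 19.7% with apigenin. For both pairs the apigenin libraries lay above the DMSO libraries. PSMB10 gave 18.9, 18.5 and 16.7% of the sum with PSMB7 with DMSO and 22, 18.4 and 20.4% with apigenin, so its groups overlapped. An exact permutation test of 3 against 3 libraries cannot go below p = 0.1, and none was run on these shares.

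**Figure D4:**
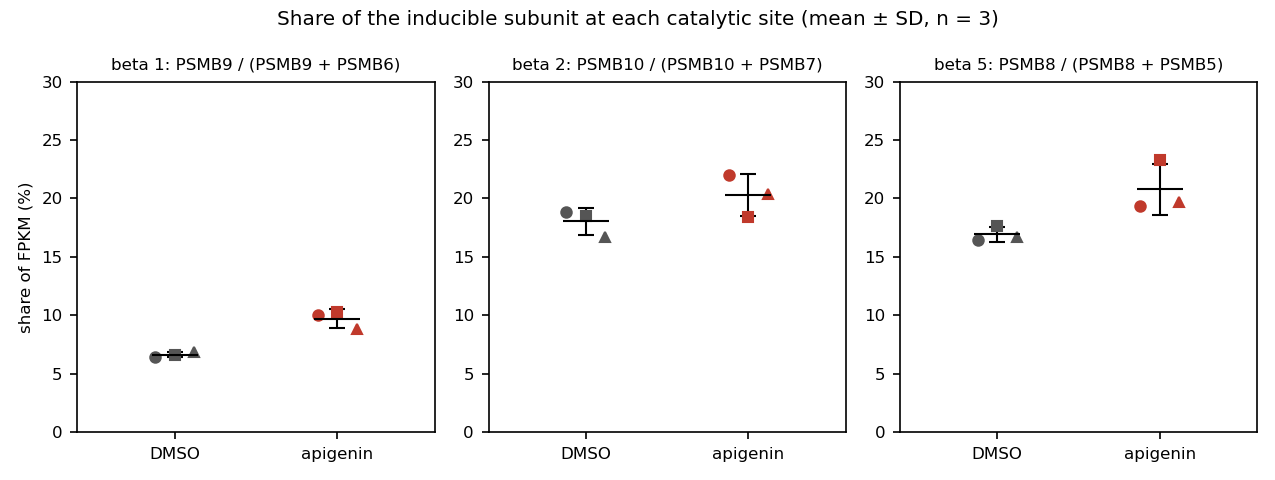
Share of FPKM (y axis, %) taken by the inducible subunit at each catalytic site of the proteasome, in each library (points) with mean ± SD of 3 (bars). The shares of PSMB9 and PSMB8 lie higher in the 3 apigenin libraries than in the 3 DMSO libraries, while those of PSMB10 overlap between 18.4 and 18.9%.

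The class I molecules themselves rose in part. B2M (chromosome 15, 44711517 to 44718145) had 624, 638 and 613 CPM with DMSO and 729, 707 and 820 with apigenin, a rise of 1.203-fold (0.27 ± 0.0593, n = 3 per group, edgeR adjusted p = 0.0174). HLA-C (chromosome 6, 31268749 to 31272092), a class I heavy chain, had 51.0, 46.5 and 48.3 CPM with DMSO and 65.6, 59.5 and 69.7 with apigenin, a rise of 1.34-fold (0.42 ± 0.0748, edgeR adjusted p = 0.00497). All 3 apigenin libraries lay above the DMSO libraries in both genes. With the length trend removed they stood at 0.22 and 0.29, both still called (adjusted p = 0.00176 and 0.00306). B2M missed the threshold without DMSO 1, 2 or 3 or apigenin 1 (0.27, 0.28, 0.25 and 0.29, adjusted p = 0.118, 0.0762, 0.12 and 0.061), and HLA-C without DMSO 2 (0.38, adjusted p = 0.0502).

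Other class I heavy chain genes did not pass. HLA-E, which presents leader peptides to natural killer cells, had 109, 108 and 109 CPM with DMSO and 116, 107 and 118 with apigenin (0.06 ± 0.06, edgeR adjusted p = 0.553). HLA-B was low, with 6.62, 4.20 and 3.70 CPM with DMSO and 6.48, 6.26 and 5.68 with apigenin (0.34 ± 0.20, edgeR adjusted p = 0.319), and DMSO 1 was above the apigenin libraries. HLA genes are variable between people and close copies of one another, so reads may be lost or split, and the level of each is uncertain.

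The transporter and loading genes and NLRC5 were not called. TAP1 had 26.5, 26.5 and 28.1 CPM with DMSO and 31.4, 26.4 and 33.3 with apigenin (0.17 ± 0.0926, edgeR adjusted p = 0.294), with apigenin 2 below the DMSO libraries. TAP2 had 48.2, 49.9 and 49.6 CPM with DMSO and 54.6, 57.2 and 53.7 with apigenin (0.16 ± 0.0653, edgeR adjusted p = 0.138), with no overlap, and it was called once the length trend was removed (0.22, adjusted p = 0.0168). TAPBP, the tapasin gene that loads peptide onto class I, stood at 0.10 ± 0.0565 (edgeR adjusted p = 0.313). TAPBP overlaps RGL2, so its reads may be shared. NLRC5, the transactivator of class I genes, was low at 5.94, 6.34 and 6.19 CPM with DMSO against 8.61, 8.77 and 6.60 with apigenin (0.38 ± 0.145, edgeR adjusted p = 0.126), and it was called once the length trend was removed (0.48, adjusted p = 0.0315).

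TAP2, PSMB8, TAP1 and PSMB9 lie in this order on chromosome 6 between 32821831 and 32859851. Within this cluster both proteasome genes were called and neither transporter gene was. The FPKM of PSMB9 over that of TAP1, its neighbour across the shared interval shown above, was 0.683, 0.642 and 0.652 with DMSO and 0.983, 0.986 and 0.926 with apigenin. The ratio was thus higher in each apigenin library than in each DMSO library. That interval is shared by both genes, and the length of PSMB9 is 1017 nucleotides against 2852 for TAP1. TAP1, like PSMB8, overlaps the antisense gene PSMB8-AS1, so the same limit on its reads applies.

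Of the antiviral genes, OAS1 (chromosome 12, 112906962 to 112933219) rose. It had 275, 288 and 286 CPM with DMSO and 352, 341 and 359 with apigenin, with no overlap. The rise was 1.24-fold (0.31 ± 0.0523, n = 3 per group, edgeR adjusted p = 0.00326), and the log2 value was 0.30 with the length trend removed (adjusted p = 6.33e-05). Without DMSO 1 it just missed the threshold (0.29, edgeR adjusted p = 0.0534).

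The neighbouring OAS genes did not pass. OAS3, a larger enzyme of the family encoded next to OAS1, had 297, 293 and 292 CPM with DMSO and 313, 308 and 259 with apigenin (-0.0025 ± 0.0683, edgeR adjusted p = 0.989), with apigenin 3 lowest. OAS2 had 25.9, 25.0 and 24.2 CPM with DMSO and 33.9, 33.3 and 27.0 with apigenin (0.33 ± 0.0945, edgeR adjusted p = 0.0526), with no overlap, and it was called once the length trend was removed (0.38, adjusted p = 0.00423). The FPKM of OAS1 over that of OAS3 was 1.48, 1.58 and 1.57 with DMSO and 1.80, 1.77 and 2.22 with apigenin. The length of OAS1 is 4125 nucleotides against 6616 for OAS3. Apigenin 3, with the highest ratio, also had the steepest slope on gene length (-0.147 per doubling). The part of length in this ratio was not tested. OASL, a relative without the enzyme activity, stood at 0.09 ± 0.113 (edgeR adjusted p = 0.668).

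ISG15 (chromosome 1, 1013497 to 1014540) encodes a ubiquitin-like protein that is joined to other proteins. It had 15.3, 16.6 and 14.8 CPM with DMSO and 20.6, 18.9 and 25.4 with apigenin, with no overlap. The rise was 1.39-fold (0.47 ± 0.115, n = 3 per group, edgeR adjusted p = 0.0268). ISG15 is short, at 637 nucleotides, and lost its call once the length trend was removed (0.28, adjusted p = 0.0585). It also missed the threshold without DMSO 1, 2 or 3 or apigenin 1, with log2 fold changes of 0.46, 0.52, 0.44 and 0.51 and adjusted p of 0.127, 0.0733, 0.135 and 0.0775.

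Of the other genes of this conjugation route, UBE2L6 rose, and USP18 and HERC6 did not pass. UBE2L6, the conjugating enzyme for ISG15, had 18.8, 18.2 and 17.7 CPM with DMSO and 28.8, 25.5 and 25.2 with apigenin. Its rise was 1.45-fold (0.54 ± 0.0893, edgeR adjusted p = 0.00297), and it was called under each of the 18 other settings. USP18, the protease that removes ISG15, had 2.31, 2.91 and 2.43 CPM with DMSO and 2.24, 3.08 and 1.96 with apigenin (-0.07 ± 0.248, edgeR adjusted p = 0.906). HERC6, a relative of the ligase HERC5, had 2.66, 2.27 and 2.37 CPM with DMSO and 2.21, 2.01 and 0.803 with apigenin (-0.54 ± 0.333, edgeR adjusted p = 0.349), with no overlap and apigenin 3 far below the rest.

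Several classical interferon-induced genes were at low levels and did not pass. IFIT1, which binds viral RNA caps, had 2.15, 2.03 and 1.48 CPM with DMSO and 4.07, 2.71 and 3.21 with apigenin (0.82 ± 0.25, edgeR adjusted p = 0.0648), with no overlap. It was called once the length trend was removed (0.83, adjusted p = 0.044). IFI6 had 2.37, 2.59 and 2.95 CPM with DMSO and 4.21, 3.94 and 4.08 with apigenin (0.63 ± 0.192, edgeR adjusted p = 0.0634), again with no overlap. IFI27 had 2.02, 2.86 and 3.10 CPM with DMSO and 4.16, 3.03 and 6.19 with apigenin (0.74 ± 0.262, edgeR adjusted p = 0.0997), with apigenin 2 inside the DMSO range.

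The neighbours of IFIT1 did not pass. IFIT3 stood at 0.22 ± 0.137 (edgeR adjusted p = 0.35) and IFIT2 at -0.04 ± 0.268 (edgeR adjusted p = 0.953). All 3 IFIT genes overlap LIPA in the annotation, so reads of that gene may be counted with them or left out. The GTPase gene MX1 had 2.07, 1.66 and 2.98 CPM with DMSO and 1.92, 2.82 and 1.79 with apigenin (-0.04 ± 0.293, edgeR adjusted p = 0.963), so its groups overlapped. IFI44, XAF1, CMPK2 and BST2, the last of which tethers virus particles to the cell, had under 3 CPM in each library and adjusted p of 0.484 to 0.973 with edgeR, with overlapping groups.

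The IFITM genes did not pass. IFITM3 had 86.0, 86.5 and 90.9 CPM with DMSO and 105, 93.9 and 107 with apigenin, with no overlap (0.21 ± 0.0655, edgeR adjusted p = 0.0659). It is the shortest of the 41 genes, at 611 nucleotides, and stood at 0.03 with the length trend removed (adjusted p = 0.841). IFITM2 stood at 0.19 ± 0.166 and IFITM1 at 0.68 ± 0.545, the latter from 8 to 19 reads a library. The 3 IFITM genes are close copies, so the level of each is uncertain.

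The RNA sensor gene IFIH1 had 12.5 to 16.2 CPM with DMSO and 13.2 to 17.1 with apigenin (0.09 ± 0.126, edgeR adjusted p = 0.717). PARP9 and DTX3L, which encode partners in a complex that modifies histones and STAT signalling, stood at 0.11 ± 0.0901 and 0.08 ± 0.0749 on the log2 fold change scale, and they overlap each other. PARP14 had 93.5, 85.2 and 88.9 CPM with DMSO and 87.5, 106 and 75.7 with apigenin (0.01 ± 0.0963, edgeR adjusted p = 0.975). In PARP9, DTX3L and PARP14 the groups overlapped.

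The receptors, kinases and sensors act upstream of these genes. Of 12 receptor, kinase and feedback genes 11 were tested, and of 10 sensor and relay genes 9 were tested, with 0 called in either direction, a count from which nothing can be read where 2.76% of all tested genes were higher and 4.22% lower. Without adjustment, over all 67 tested genes of the wider pathway, 10 were higher and 7 lower at p under 0.05, and DESeq2 called 5 higher and 2 lower. Over all tested genes these shares were 11.7% and 12.6% unadjusted and 5.34% and 7.37% with DESeq2. The type I receptor genes IFNAR1 and IFNAR2 had 8.84 and 10.1 FPKM with DMSO and log2 fold changes of -0.14 ± 0.0709 and -0.02 ± 0.0764. The interferon gamma receptor genes IFNGR1 and IFNGR2 had 21.7 and 32.8 FPKM with DMSO and log2 fold changes of 0.05 ± 0.0651 and 0.14 ± 0.0784. All 4 had overlapping groups. JAK1, the kinase both receptor types use, had 174, 158 and 175 CPM with DMSO and 143, 156 and 129 with apigenin, with no overlap (-0.25 ± 0.0717, edgeR adjusted p = 0.0536), and it was called lower with the length trend removed (-0.21, adjusted p = 0.018). Of 10 interferon genes only IFNE, at 0.42 FPKM with DMSO, was tested, and it was not called (-0.45 ± 0.522, edgeR adjusted p = 0.651). The other 9 were not analysed here.

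Of 34 further interferon-induced genes 30 were tested, with 3 higher, 1 lower and 26 not called. Over all tested genes, 2.76% were higher and 4.22% lower. Besides UBE2L6, the mono-ADP-ribosyltransferase gene PARP10 rose from 47.2, 44.8 and 41.1 CPM with DMSO to 56.8, 58.2 and 62.7 with apigenin (0.42 ± 0.0742, edgeR adjusted p = 0.00477). APOL2, of the apolipoprotein L family, had 81, 84.4 and 78.7 CPM with DMSO and 98, 96.6 and 104 with apigenin. It rose by 0.29 ± 0.0617 (edgeR adjusted p = 0.0133), and was not called without DMSO 1, 2 or 3 or apigenin 1 (0.29, 0.32, 0.27 and 0.30, adjusted p = 0.101, 0.0528, 0.107 and 0.0616). TRIM14, a relay of RNA sensing, fell by 0.29 ± 0.0683 on the log2 scale (edgeR adjusted p = 0.0224). It is long, at 10160 nucleotides, and lost its call once the length trend was removed (-0.15, adjusted p = 0.151) or without DMSO 1, 2 or 3 or apigenin 1 (-0.28, -0.27, -0.33 and -0.28, adjusted p = 0.133, 0.117, 0.0572 and 0.1). The median of the 30 was 0.06.

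Among genes that act with class I presentation, PSME1, a subunit of the proteasome activator PA28, had 78.6, 84.2 and 73.4 CPM with DMSO and 91.5, 93.2 and 114 with apigenin. It rose by 0.34 ± 0.0849 (edgeR adjusted p = 0.031), and stood at 0.19 with the length trend removed (adjusted p = 0.0455). Without DMSO 1, 2 or 3 or apigenin 1 it was not called (0.34, 0.39, 0.29 and 0.39, adjusted p = 0.145, 0.0728, 0.17 and 0.0605). Its partner PSME2 stood at 0.31 ± 0.0942 (edgeR adjusted p = 0.0655), and at 0.14 with the length trend removed (adjusted p = 0.167). Of 12 loading and regulator genes, among them ERAP1, CALR and RFX5, 10 were tested and 0 called. Nothing can be read from that count where 2.76% of all tested genes were higher and 4.22% lower.

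Gene length moved with these results. Spearman's correlation between fold change and gene length was -0.53 over the 41 genes, which share the same 6 libraries, and -0.36 over the 15173 tested genes. With the trend removed, 10 of the 41 genes were called higher and 0 lower, while 685 genes rose and 828 fell in all. The 10 were IRF1, OAS1, PSMB8, PSMB9, B2M and HLA-C with IFIT1, OAS2, TAP2 and NLRC5 added, and ISG15 was no longer among them. Among genes not called, the log2 fold change moved to 0.03 for IFITM2, 0.0056 for IRF3, 0.23 for HLA-B and 0.02 for HLA-E. IRF1, PSMB8 and PSMB9 were called with any 1 library left out.

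**Figure D5:**
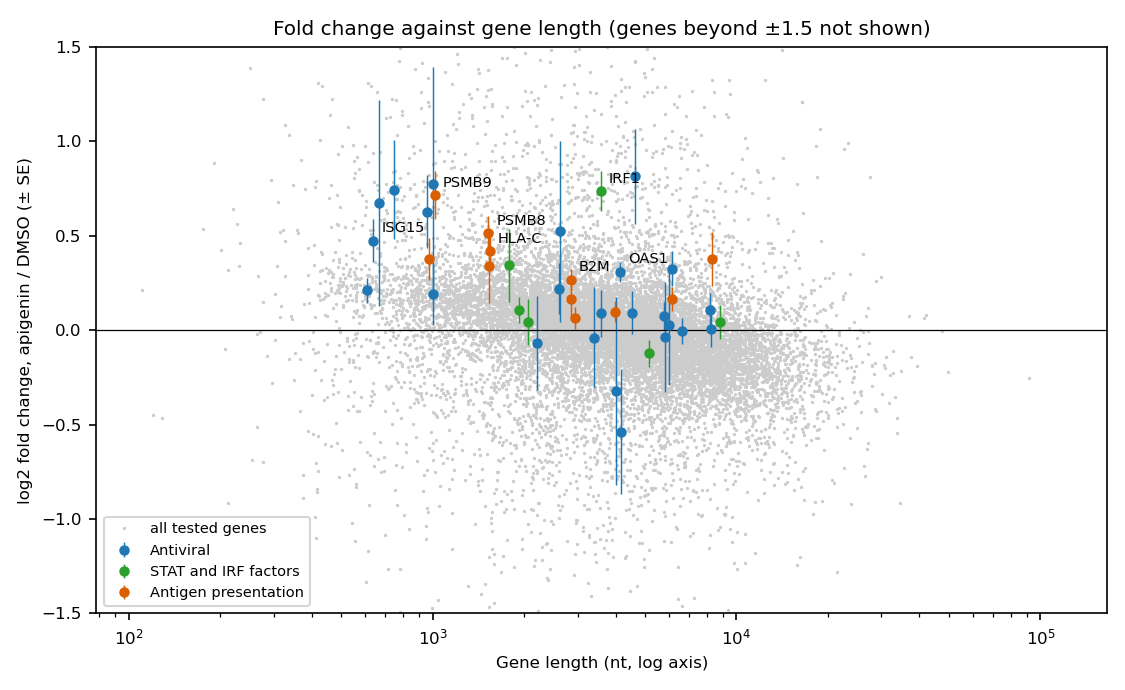
Log2 fold change of apigenin over DMSO (y axis, ± SE) against gene length in nucleotides (x axis, log scale) for the 41 genes by role (colours), over all tested genes (grey). Short genes lie mostly above 0 in grey as well; IRF1, OAS1, PSMB9 and PSMB8 lie above most grey points of their length.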

How the data were processed

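RNA-seq was done on total RNA of 6 HCC-LM3 samples, per the labels. The tools named in the submitters' processing notes are fastp, HISAT2 and HTSeq, with genome build GRCh38; their versions and the strand setting are not stated there. The authors deposited unnormalized read counts per gene, and FPKM values. The deposited FPKM equal count over gene length and library total for 100% of values (relative tolerance 1e-04), which gave the gene lengths.

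Counts were tested with edgeR 4.0.16 (R 4.3.3; TMM factors, default filter on low counts, 15173 genes kept, adjusted p under 0.05, n = 3 per group). An SE is the log2 fold change over the root of the F statistic. The length trend was removed as a lowess offset per library (span 0.3). The other settings were DESeq2 1.42.0, other scaling factors and filters, a replicate block, limma 3.58.1 on log2(FPKM + 1) or log2(FPKM + 0.1) keeping genes at 0.5 FPKM in at least 3 libraries or all genes, and each library left out. FPKM fold changes on that scale understate changes of low genes. Steps were tested on simulated data. The genes named by rule are those called, the 3 with the highest FPKM per role and, in the wider pathway, called genes, PSMB5 to PSMB7 and 4 receptor genes. JAK1 and the other genes given with values per library were added after their values were seen. Members, lists and settings were chosen with earlier results of these data known. Positions and promoters are from RefSeq (GRCh38.p14).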

Additional observations from a re-analysis of the deposited data

How the results depend on the processing

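The 7 genes of the family called higher became 11 with DESeq2, 12 without a filter on low counts and 3 with limma on log2(FPKM + 1) without a filter, and 0 were lower under any of the 18 settings. The 4 other pathway genes called higher became 1 with limma without a filter, and the 1 lower became 2 with DESeq2, without a filter, with the replicate block or with the length trend removed, 3 with both of these, and 0 with each limma setting. Over all genes, the 419 higher became 658 with DESeq2, 865 without a filter, 685 with the length trend removed, 801 with the replicate block added to that, and 78 with limma without a filter. The 641 lower became 1096 without a filter, and 303, 289 and 60 with limma on log2(FPKM + 1), on log2(FPKM + 0.1) and without a filter. The antigen presentation median of 0.34 was 0.22 with the length trend removed, with or without the block.

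With 1 library left out, 4 (without DMSO 1 or DMSO 2) to 12 (without apigenin 2) genes of the family and 2 to 10 other pathway genes were higher and 0 to 5 other pathway genes lower. Over all genes 103 (without DMSO 1) to 1344 (without apigenin 2) were higher and 157 to 1546 lower. The antiviral median ran from 0.10 to 0.24 and the antigen presentation median from 0.25 to 0.35, the ends at 0.24 and 0.25 both without DMSO 3. Same-numbered libraries did not deviate together (correlations of -0.017, -0.019 and -0.048), which cannot show whether they were handled together. With the replicate block 9 genes of the family were higher, OAS2 and PSMB10 being added. Over all 15173 tested genes, 455 were higher and 776 lower with that block. Scaling factors left the median of all genes between 0.0029 and 0.0089. Depth limits the low genes: BST2 and IFITM1, with at most 29 and 19 reads in a library, had SEs of 0.623 and 0.545.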
